A study of Homo sapiens with 6 samples.

Results

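The 48 genes described here carry the cell through G2 and mitosis. They were chosen by gene name among the protein-coding genes, and all 48 were found among the 58735 genes of the deposited table and passed the filter on low counts that left 16116 genes for testing. The RNA came from MG63, an established human osteosarcoma cell line, collected 48 h after transfection with small interfering RNA against FUBP1 (siFUBP1, 3 libraries) or with a negative control (siMock, 3 libraries). The comparison addresses which genes respond when FUBP1, a DNA-binding transcriptional regulator, is knocked down. Which of the FUBP1 siRNAs was used is not given in the sources used here, nor whether the 3 libraries of a group came from separate cultures, so p-values measure only the spread between these libraries.

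Entry into mitosis is driven by the kinase CDK1 bound to cyclin B, and exit by the anaphase-promoting complex (APC/C), a ubiquitin ligase that marks cyclin B and securin for destruction. In between, the kinetochores attach chromosomes to the spindle, and the spindle assembly checkpoint holds the APC/C back until every chromosome is attached. Most of these genes are transcribed late in the cell cycle, under the MuvB complex together with MYBL2 and FOXM1, through a promoter element named CHR that often lies close to the start site and downstream of CCAAT boxes.

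The promoters of the members held that element often. RefSeq (GRCh38.p14) gave 52 promoters, of 250 bases before to 50 after the start, for 41 of the 48 members, with AURKA, BIRC5, BUB3, FOXM1, TPX2, TTK and UBE2C unmatched. A CHR, searched as TTTGAA or TTCGAA on both strands, was found in 33 of the 52 promoters (63.5%), against 16.4% of all 35116 promoters of the same length. CCAAT, on both strands, was found in 75% of the members' promoters and in 34.6% of all, and both motifs together in 53.8% and 6.38%. An E2F-type site (TTCGCGC or TTGGCGC, both strands) was less frequent, in 13.5% of the members' promoters and 5.06% of all. Counted once per promoter there were 46 CHR matches, of which 32 started within 50 bases of the start site and 2 overlapped a CCAAT match. Because promoters of CDC25C and of ECT2 overlap, these were 44 distinct sites, 31 of them within 50 bases of a start. The 120 bases before the start are shown for the named members with a CHR there, so that genes that fell, rose and did not pass the test can be compared. Capitals mark the CHR matches (TTTGAA, or TTCAAA read on the other strand) and the CCAAT boxes (CCAAT, or ATTGG read on the other strand), and the sequences run 5′ to 3′ on the gene's strand.
ESPL1, chr12:53268179-53268298, plus strand: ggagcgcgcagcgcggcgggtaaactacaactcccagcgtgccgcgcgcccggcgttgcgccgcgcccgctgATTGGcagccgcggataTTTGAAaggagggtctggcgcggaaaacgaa
ANLN, chr7:36389742-36389861, plus strand: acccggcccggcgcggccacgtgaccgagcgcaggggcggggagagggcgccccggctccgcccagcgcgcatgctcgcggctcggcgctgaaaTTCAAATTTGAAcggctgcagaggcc
ASPM, chr1:197146670-197146789, minus strand: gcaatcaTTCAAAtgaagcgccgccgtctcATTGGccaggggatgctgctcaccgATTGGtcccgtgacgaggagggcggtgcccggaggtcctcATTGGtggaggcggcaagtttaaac
MKI67, chr10:128126424-128126543, minus strand: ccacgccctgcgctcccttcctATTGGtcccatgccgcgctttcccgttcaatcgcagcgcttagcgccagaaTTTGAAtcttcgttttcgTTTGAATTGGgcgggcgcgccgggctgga
CENPA, chr2:26785936-26786055, plus strand: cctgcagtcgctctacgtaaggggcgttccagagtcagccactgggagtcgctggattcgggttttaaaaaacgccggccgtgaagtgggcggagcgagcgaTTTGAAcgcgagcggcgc
CDK1, chr10:60778358-60778477, plus strand: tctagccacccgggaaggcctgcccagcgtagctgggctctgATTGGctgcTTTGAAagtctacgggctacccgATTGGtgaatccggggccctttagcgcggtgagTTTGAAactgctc
The first 4 of these genes fell, CENPA rose and CDK1 did not pass the test. In ANLN the 2 matches abut, and in MKI67 the match nearer the start shares bases with a CCAAT box. The other named members with a promoter entry, CCNB1, AURKB, MAD2L1, NEK2, TOP2A and MYBL2, had no whole CHR match in these 120 bases. Of the 30 members with a match, 8 rose and 12 fell after FUBP1 knockdown, with a median log2 fold change of -0.01. Over all tested genes 30.1% were higher and 30.1% lower. Of the 11 members with a promoter entry but neither TTTGAA nor TTCGAA, 2 rose and 5 fell, with a median of -0.07. A match is a run of letters, not a measured binding site, and variants of the element with other letters were not searched.

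**Figure D1:**
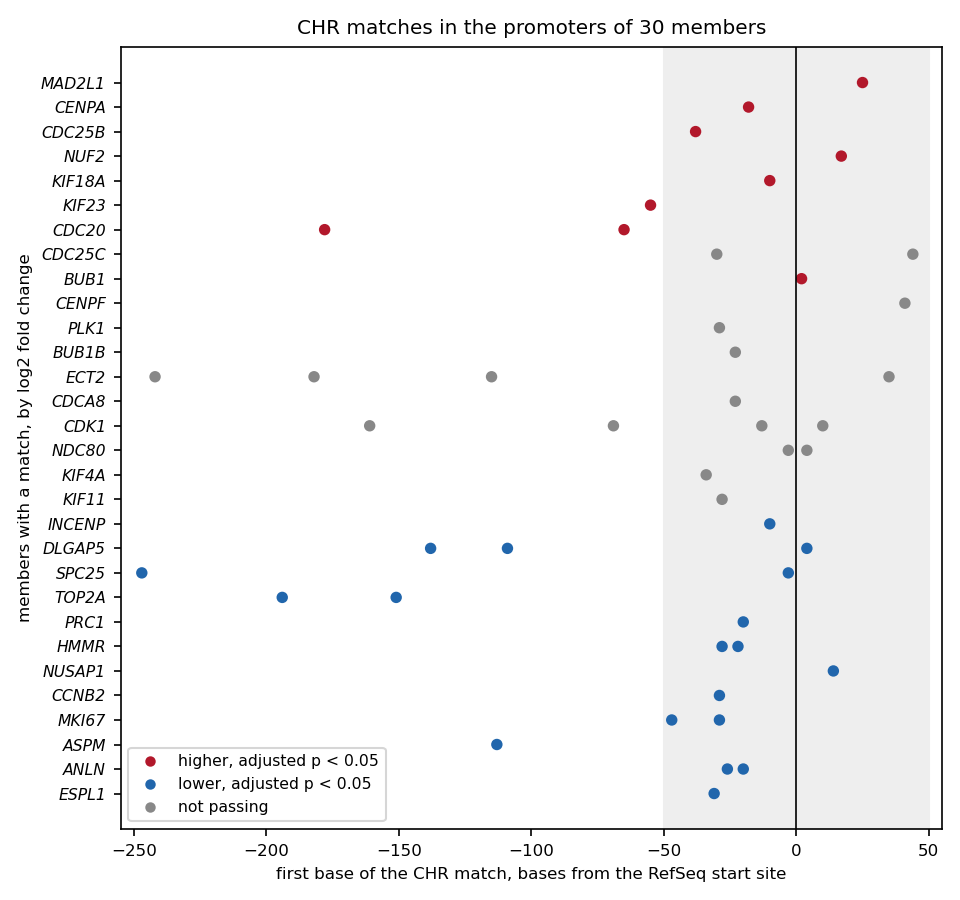
Position of the first base of each CHR match, in bases from the RefSeq start site (horizontal axis), for the 30 members with a match, once per promoter, ordered by log2 fold change with the highest at the top; the shaded band spans 50 bases on either side of the start, and colours give the result of the edgeR test. Of 46 matches 32 lie in the band, in genes that rose, fell and did not pass alike.

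FUBP1 itself was counted at 237, 255 and 274 CPM in siMock and at 44.3, 43.4 and 53.0 CPM in siFUBP1. CPM here are the deposited counts scaled to the library size after TMM normalisation. The groups lay far apart, with 18.4% of the siMock level left and a log2 fold change of -2.44 (adjusted p = 1.90e-17, by the quasi-likelihood test of edgeR, Benjamini-Hochberg adjusted). Total counts were 16309900 to 17484313 per library. Of the osteoblast and mesenchymal markers, COL1A1, FN1 and VIM were above 45 CPM in every library, but COL1A2 and IBSP had 0 counts in all 6, which allows up to 3 counts each, and SPARC, ALPL and SP7 had at most 5. BGLAP had 2 to 13 counts per library. RUNX2 was at 0.448 CPM in siMock on average and at 4.05 CPM in siFUBP1. Of the markers of other cell types, CD3E, KRT5 and MYOG had 0 counts and EPCAM was the highest, at up to 4.91 CPM. The part of these cells' identity in the members' values was not tested.

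At an adjusted p below 0.05, 13 of the 48 were higher in siFUBP1 (27.1%) and 19 were lower (39.6%), against 30.1% higher and 30.1% lower of all 16116 genes tested by edgeR. Among the 11147 genes counted at least as deeply as PRC1, the least counted member, 33.6% were higher and 34.6% lower. The median log2 fold change of the members was -0.02, with a range from -1.04 to 0.83, and that of all genes was 0.002. With the total library size in place of TMM, which moved the median of all genes to 0.10, the split of the members turned to 15 higher and 13 lower and their median to 0.077. A log2 fold change beyond 1 together with that adjusted p was met upwards by 8.16% of all genes and downwards by 9.13%. Of the members, 0 passed it upwards, with edgeR, with edgeR's unadjusted p, with DESeq2 and with limma alike. Downwards 1 passed it (ESPL1) with edgeR, with DESeq2 and with limma on log2(FPKM + 0.1), and 0 with limma on log2(FPKM + 1). The groups did not overlap in 32 of the 48 members, and in 63.9% of all genes. An exact permutation test of 3 libraries against 3 cannot give a p below 0.10, so the tests below come from edgeR's fit across all genes.

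**Figure D2:**
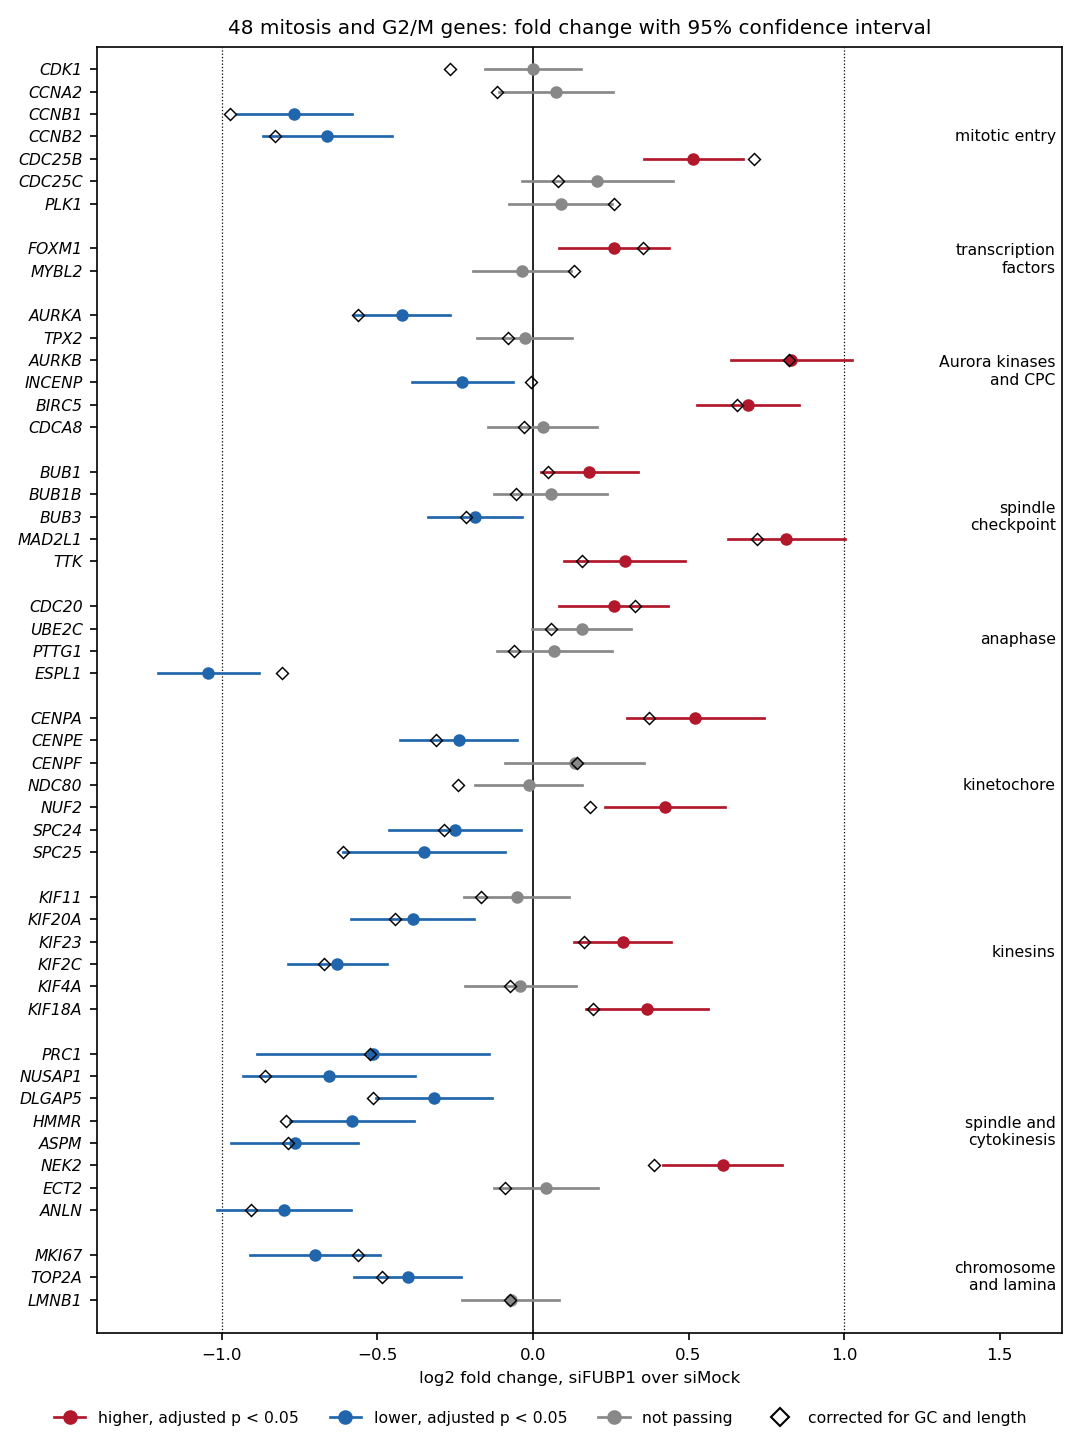
Log2 fold change of siFUBP1 over siMock for the 48 members by role; points and lines give edgeR's estimate and its 95% confidence interval, and open diamonds the estimate once GC content and transcript length were corrected for. The points run from -1.04 (ESPL1) to 0.83 (AURKB), most spindle and cytokinesis genes lie left of 0, and dotted lines mark log2 fold changes of -1 and 1.

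Summed over the members, siMock held 4988 ± 236 CPM and siFUBP1 4487 ± 218 CPM (SD, n = 3 each). The lowest siMock library (4752 CPM) lay above the highest siFUBP1 library (4711 CPM). This separation depended on TMM: with library size alone the siMock libraries held 4592 to 5001 CPM and the siFUBP1 libraries 4494 to 4817 CPM, so that the groups overlapped. MKI67, ANLN, TOP2A and ASPM, the 4 members with the largest falls in CPM, fell by 463 CPM together, beside a net 501 CPM over all. The other 44 members came to a net fall of 37.4 CPM, in which falls and rises cancelled. Among them ESPL1 went from 135 to 65.4 CPM and CCNB1 from 151 to 88.4 CPM. In the other direction CDC25B went from 107 to 154 CPM and BIRC5 from 69.8 to 113 CPM. In bulk RNA, fewer cells of a kind and less RNA per cell cannot be told apart. Many members were highest or lowest in the same library of a group. Highest of its group was siMock replicate 3 for 32 of the 48 members and siFUBP1 replicate 3 for 32. Lowest was siMock replicate 1 for 27 and siFUBP1 replicate 2 for 33. How often each library was highest or lowest over all tested genes was not computed, and the part of the scaling in these counts was not tested. The SD of log2 CPM between replicates had a median over the members of 0.10 in siMock and 0.11 in siFUBP1. MKI67 and CENPF varied most in siMock, at 0.25 and 0.24. The median GC content of the members' longest transcripts was 43.8%, below the 48.9% of all tested genes. Values corrected for GC content and transcript length are given where they add or end a call or move a called value by over 1.5 times; over all members the correction gave 12 higher and 21 lower, with a median of -0.08.

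**Figure D3:**
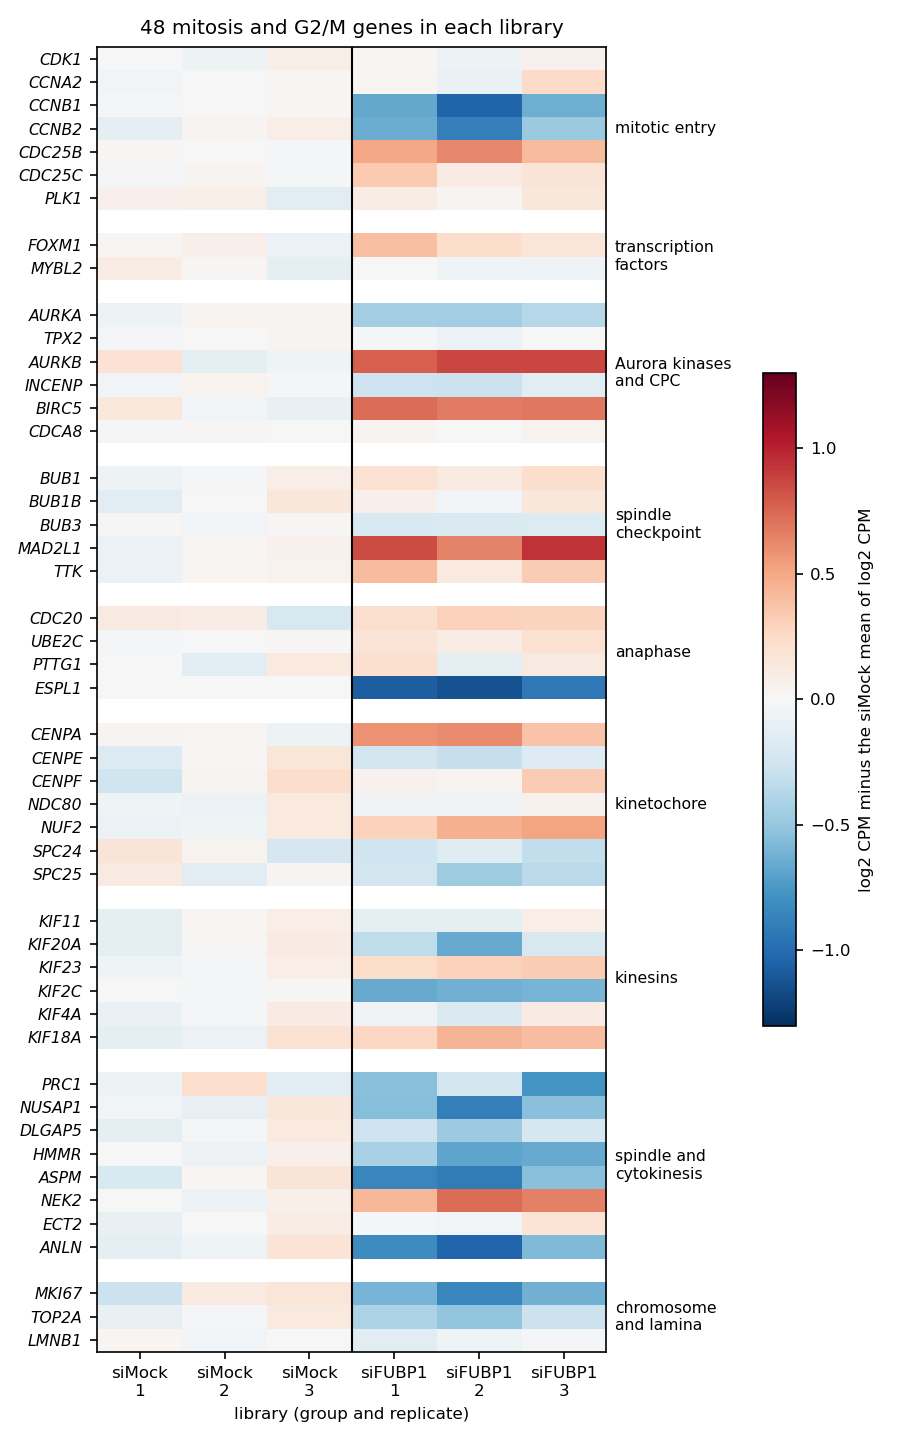
Level of each member in each of the 6 libraries, as log2 CPM minus the mean of log2 CPM over the siMock libraries, so that blue is below and red above siMock. The siFUBP1 columns hold rows of both colours, and CCNB1, ESPL1, ASPM and ANLN are the darkest blue, AURKB and MAD2L1 the darkest red.

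Of the kinase, cyclins and phosphatases of mitotic entry, the B-type cyclins fell and the phosphatase CDC25B rose, while the kinase CDK1 did not pass the test. CCNB1, which encodes cyclin B1 (chromosome 5, 69167010 to 69178245), was at 148, 150.2 and 153 CPM in siMock and at 95.0, 73.2 and 97.1 CPM in siFUBP1. The siMock libraries were close together and every siFUBP1 library lay below them, lowest in replicate 2. The log2 fold change was -0.77 (95% confidence interval -0.95 to -0.58, adjusted p = 5.03e-08, edgeR). CCNB2, the second B-type cyclin, went from 48.7 ± 3.58 to 30.8 ± 4.28 CPM (SD, n = 3; log2 fold change -0.66, adjusted p = 2.98e-06, edgeR). CDK1 (chromosome 10, 60778331 to 60794852) was at 186, 179 and 198 CPM in siMock and at 189, 179.7 and 195 CPM in siFUBP1. These groups overlapped fully, with a log2 fold change of 0.0007 (95% confidence interval -0.15 to 0.16, adjusted p = 0.995, edgeR). The transcript of CDK1 is poor in GC, at 37.0%, and corrected for GC content and length its log2 fold change was -0.27 (adjusted p = 0.000237, edgeR). Per length, CCNB1 stood at 1.23 ± 0.0497 times CDK1 in siMock and at 0.722 ± 0.0825 times in siFUBP1 (ratio of FPKM, SD, n = 3), with no overlap. CCNA2 stood at 0.435 ± 0.0196 and 0.456 ± 0.0375 times CDK1 (SD, n = 3), with overlap. How often such ratios separate the groups over other gene pairs was not computed. CDC25B, which removes inhibitory phosphates from CDK1, went from 107 ± 1.26 to 154 ± 11.5 CPM (SD, n = 3; log2 fold change 0.52, adjusted p = 2.44e-06, edgeR). The other 3 members did not pass. Cyclin A2 (CCNA2) was at 0.07 (-0.12 with the GC and length correction), the phosphatase CDC25C at 0.21 and the kinase PLK1 at 0.09 on the log2 scale. PLK1 reached 0.26 (adjusted p = 0.00111, edgeR) with the GC and length correction.

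Of the 2 transcription factors of the program, FOXM1 rose slightly and MYBL2 did not pass. FOXM1, a forkhead activator of late cell cycle genes (chromosome 12, 2857681 to 2877155), was at 56.4, 58.4 and 53.1 CPM in siMock and at 73.2, 65.7 and 62.3 CPM in siFUBP1. All siFUBP1 libraries were above all siMock libraries, with replicate 1 the highest, and the log2 fold change was 0.26 (adjusted p = 0.0105, edgeR). Without siFUBP1 replicate 1 it was 0.20 and no longer passed (adjusted p = 0.0767, edgeR), and 781 of its 4899 exonic bases overlap exons of ITFG2 on the opposite strand, in counts whose use of strand is not stated. MYBL2, the B-MYB partner of the MuvB complex, was at 180.0, 170.1 and 156 CPM in siMock and at 168, 162 and 163 CPM in siFUBP1. The siFUBP1 values fell inside the siMock range (log2 fold change -0.04, 95% confidence interval -0.19 to 0.12, adjusted p = 0.706, edgeR). With the GC and length correction it was at 0.13 (adjusted p = 0.0523, edgeR).

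The chromosomal passenger complex, which corrects faulty attachments and guides cytokinesis, changed unevenly: its kinase AURKB and its subunit BIRC5 (survivin) rose, its scaffold INCENP fell and CDCA8 (borealin) did not pass. AURKB (chromosome 17, 8204733 to 8210600) was at 33.6, 27.0 and 28.5 CPM in siMock and at 50.6, 53.9 and 54.0 CPM in siFUBP1. The groups were clearly apart, and its log2 fold change of 0.83 was the largest rise of any member (95% confidence interval 0.64 to 1.02, adjusted p = 2.91e-08, edgeR). BIRC5 (chromosome 17, 78214186 to 78225636) was at 76.4, 68.0 and 65.1 CPM in siMock and at 115, 111 and 112 CPM in siFUBP1. It too rose in every library (log2 fold change 0.69, adjusted p = 3.73e-08, edgeR). INCENP went from 79.9 ± 2.30 to 68.3 ± 3.64 CPM (SD, n = 3; log2 fold change -0.23, adjusted p = 0.0160, edgeR), but its transcript is rich in GC, at 59.6%, and the corrected value was -0.01 (adjusted p = 0.953, edgeR). Its call was also lost without siFUBP1 replicate 1 (adjusted p = 0.0797, edgeR), without siFUBP1 replicate 2 (0.0706) and without siMock replicate 2 (0.0799). Library size alone lost it too. CDCA8 was at 41.5 ± 0.513 and 42.4 ± 0.671 CPM (SD, n = 3). The FPKM of AURKB relative to INCENP rose from 0.744 ± 0.105 to 1.55 ± 0.0755 (SD, n = 3), and that of BIRC5 relative to CDCA8 from 1.09 ± 0.103 to 1.72 ± 0.0280 (SD, n = 3), both with no overlap. AURKA, the Aurora kinase of the centrosome and spindle poles, went the other way, from 160 ± 6.25 to 119 ± 3.41 CPM (SD, n = 3; log2 fold change -0.42, adjusted p = 2.46e-05, edgeR). Its activator TPX2, the most abundant member per length, was at 263 ± 5.55 and 258 ± 7.70 CPM (SD, n = 3; adjusted p = 0.778, edgeR).

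In the spindle assembly checkpoint, 3 of 5 members were higher, 1 was lower and BUB1B, which encodes the checkpoint protein BUBR1, did not pass. Over all tested genes 30.1% were higher and 30.1% lower. MAD2L1, which encodes the MAD2 protein that captures CDC20 (chromosome 4, 120055608 to 120067074), was at 34.3, 36.8 and 37.7 CPM in siMock and at 65.5, 56.7 and 69.3 CPM in siFUBP1. Every siFUBP1 library was well above siMock, with a log2 fold change of 0.81 (95% confidence interval 0.63 to 1.00, adjusted p = 2.31e-08, edgeR). TTK, the checkpoint kinase MPS1, was at 0.29 (adjusted p = 0.00941, edgeR), BUB1, a kinetochore kinase, at 0.18 (adjusted p = 0.0420, edgeR) and BUB3, which brings BUB1 to the kinetochore, at -0.19 (adjusted p = 0.0295, edgeR). These 3 calls were less firm than that of MAD2L1. Corrected for GC content and length, TTK was at 0.16 (adjusted p = 0.104, edgeR) and BUB1 at 0.05 (adjusted p = 0.4996, edgeR). TTK also lost its call without siFUBP1 replicate 1 (adjusted p = 0.0590, edgeR), BUB1 without siFUBP1 replicate 1 (0.0822), siFUBP1 replicate 3 (0.113), siMock replicate 1 (0.150) or siMock replicate 2 (0.118), and BUB3 with any library left out other than siFUBP1 replicate 3, at adjusted p of 0.0518 to 0.0955. Library size alone and upper-quartile factors also lost the call of BUB3, and no filter on low counts those of BUB1 and BUB3. BUB1B was at 58.2 ± 5.67 and 60.6 ± 3.91 CPM (SD, n = 3) and shares 457 of its 4476 exonic bases with the readthrough gene BUB1B-PAK6, which had at most 4 counts. Relative to BUB3, the FPKM of MAD2L1 went from 0.256 ± 0.0149 to 0.513 ± 0.0507 (SD, n = 3).

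The anaphase genes held the largest fall of all members. ESPL1, which encodes separase, the protease that cleaves cohesin (chromosome 12, 53268299 to 53293643), was at 135, 136 and 134 CPM in siMock and at 63.9, 61.5 and 70.8 CPM in siFUBP1. The siMock libraries were within 2 CPM of each other and the siFUBP1 libraries far below, with 48.5% of the siMock level left. Its log2 fold change was -1.04 (95% confidence interval -1.20 to -0.88, adjusted p = 1.60e-11, edgeR), just past the threshold of 1. With the GC and length correction it was -0.80 (adjusted p = 7.86e-11, edgeR) and without siFUBP1 replicate 2 it was -0.99, both still called but short of that threshold. Securin (PTTG1), the inhibitor that separase is bound to before anaphase, was at 80.9 ± 7.29 and 84.9 ± 9.94 CPM (SD, n = 3; log2 fold change 0.07, adjusted p = 0.532, edgeR). The FPKM of ESPL1 relative to PTTG1 went from 0.379 ± 0.0364 to 0.176 ± 0.0178 (SD, n = 3), with no overlap. CDC20, the mitotic activator of the APC/C, went from 101 ± 12.4 to 121 ± 4.06 CPM (SD, n = 3; log2 fold change 0.26, adjusted p = 0.0104, edgeR). Its siMock replicate 3, at 86.4 CPM, was below the other two, and without it the log2 fold change was 0.16 (adjusted p = 0.103, edgeR). UBE2C, the ubiquitin-conjugating enzyme of the APC/C, was at 0.16 on the log2 scale and did not pass (adjusted p = 0.0821, edgeR), although its groups did not overlap. It was called with library size alone, with upper-quartile factors and with limma at both pseudocounts.

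**Figure D4:**
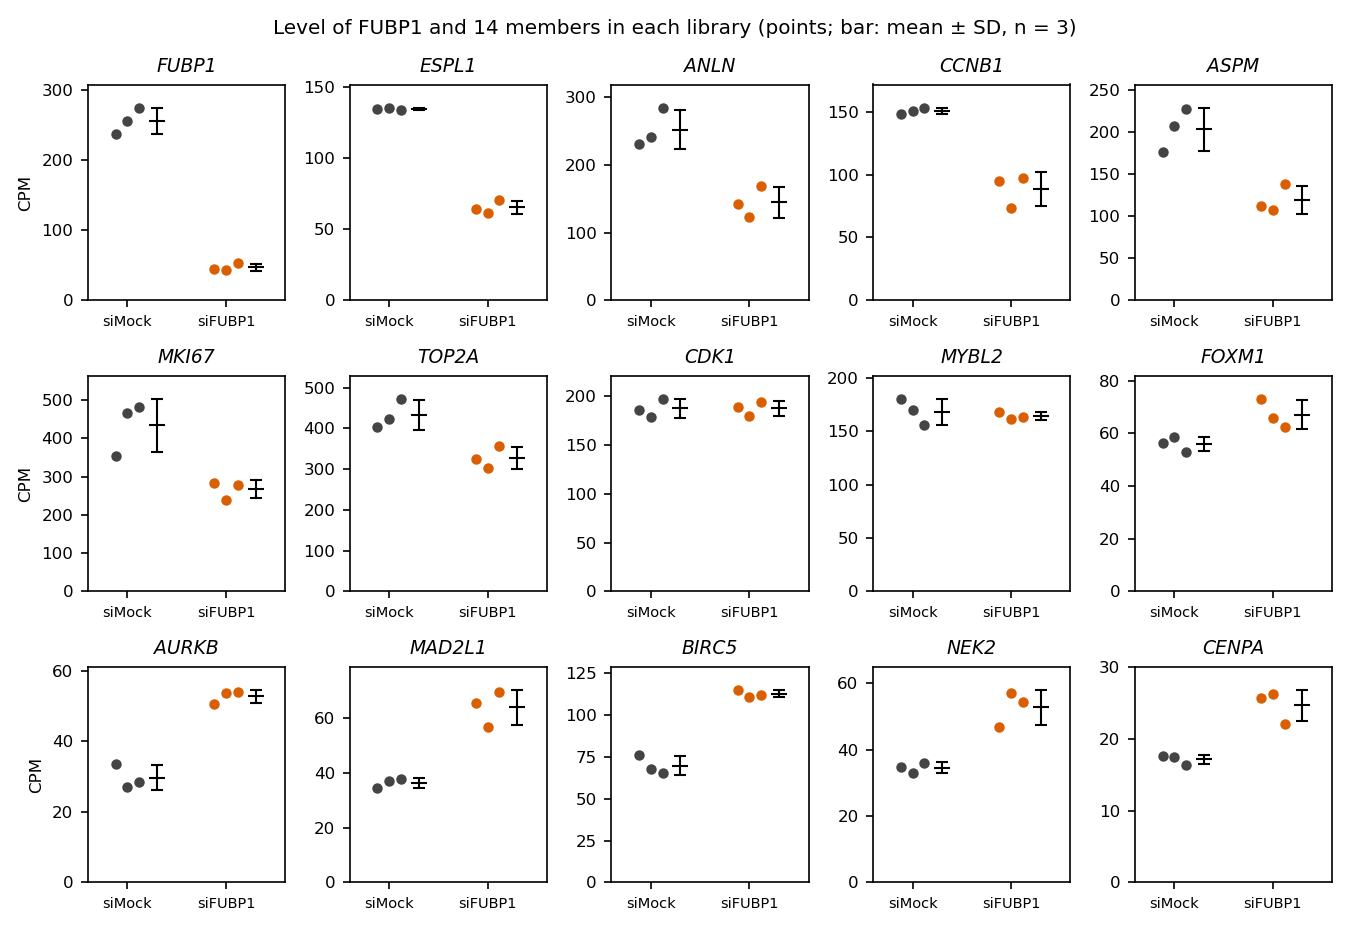
CPM of FUBP1 and 14 members in each library; points are single libraries, the bar beside them the mean with 1 SD (n = 3), and each vertical axis starts at 0. From ESPL1 to TOP2A the siFUBP1 points lie below all siMock points, for CDK1 and MYBL2 they overlap, and from FOXM1 to CENPA they lie above.

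Of 7 centromere and kinetochore members, 2 were higher and 3 lower, where 30.1% of all tested genes were higher and 30.1% lower. CENPA, the histone variant that marks the centromere (chromosome 2, 26764289 to 26801067), was at 17.6, 17.5 and 16.4 CPM in siMock and at 25.6, 26.2 and 22.1 CPM in siFUBP1. It was higher in every siFUBP1 library (log2 fold change 0.52, adjusted p = 0.000145, edgeR), and 138 of its 1983 exonic bases overlap exons of SLC35F6 on the same strand, itself at 0.43. The NDC80 complex, the microtubule anchor of the kinetochore, has 4 subunits among the members, and they differed in direction. NUF2 rose from 31.6 ± 2.47 to 42.3 ± 3.20 CPM (SD, n = 3; log2 fold change 0.42, adjusted p = 0.000363, edgeR). With the GC and length correction NUF2 was at 0.18 (adjusted p = 0.0491, edgeR), and with the replicate block added its call was lost (adjusted p = 0.0531, edgeR). NDC80 itself was at 65.4 ± 5.19 and 64.7 ± 2.63 CPM (SD, n = 3; log2 fold change -0.01), and at -0.24 (adjusted p = 0.00272, edgeR) with the GC and length correction. SPC25 was at -0.35 (adjusted p = 0.0193, edgeR), or -0.61 (adjusted p = 8.15e-05, edgeR) with that correction, and SPC24 at -0.25 (adjusted p = 0.0375, edgeR), the latter with overlapping groups. The kinetochore motor CENPE, at -0.24 (adjusted p = 0.0273, edgeR), also had overlapping groups, and CENPF, a large kinetochore protein, was at 0.13 and did not pass. SPC25 lost its call without siFUBP1 replicate 2 (adjusted p = 0.0851, edgeR) or siMock replicate 1 (0.0740), SPC24 without any library other than siFUBP1 replicate 2 and siMock replicate 3 (0.110 to 0.191), and CENPE without siFUBP1 replicate 1 (0.0829), siFUBP1 replicate 2 (0.105), siMock replicate 2 (0.0758) or siMock replicate 3 (0.141). Each of these calls was also lost with library size alone. Those of SPC24 and CENPE were lost with upper-quartile factors and with limma at both pseudocounts, and that of SPC24 with DESeq2 and with no filter on low counts. Without siMock replicate 3 CENPF was at 0.25 and was called (adjusted p = 0.0373, edgeR). Relative to NDC80, the FPKM of NUF2 went from 0.517 ± 0.00872 to 0.7001 ± 0.0426 (SD, n = 3), with no overlap. That of SPC25 relative to SPC24 was 0.705 ± 0.113 in siMock and 0.653 ± 0.0775 in siFUBP1 (SD, n = 3), with overlap.

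The kinesin motors also divided. KIF2C, a depolymerase that frees wrong attachments, went from 88.9 ± 0.989 to 57.5 ± 1.03 CPM (SD, n = 3; log2 fold change -0.63, adjusted p = 1.17e-07, edgeR). KIF20A, which carries the passenger complex to the midzone, went from 97.2 ± 7.77 to 74.4 ± 11.5 CPM (SD, n = 3; log2 fold change -0.39, adjusted p = 0.00127, edgeR). The spindle midzone motor KIF23 and KIF18A, which dampens chromosome movements, rose. KIF23 went from 116 ± 5.87 to 142 ± 4.69 CPM (SD, n = 3; log2 fold change 0.29, adjusted p = 0.00183, edgeR) and KIF18A from 38.2 ± 4.66 to 49.2 ± 2.93 CPM (SD, n = 3; log2 fold change 0.37, adjusted p = 0.00168, edgeR). After the GC and length correction they were at 0.16 and 0.19, still called (adjusted p = 0.0177 and 0.035, edgeR). KIF11, which separates the spindle poles, and the chromokinesin KIF4A were at -0.05 and -0.04 and did not pass. KIF11 was at -0.17 (adjusted p = 0.0206, edgeR) with the GC and length correction.

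The spindle-associated and cytokinesis genes were the group with the most falls: 6 of 8 were lower, 1 was higher and 1 did not pass, with a median log2 fold change of -0.55. Over all tested genes 30.1% were lower. A further list of 29 other spindle, motor and cytokinesis genes, described below, did not share this lean. It gave 9 higher and 11 lower, with a median of -0.07. ANLN, the anillin that organises the contractile ring (chromosome 7, 36389806 to 36453791), was at 230.2, 241 and 284 CPM in siMock and at 142, 123 and 169 CPM in siFUBP1. The highest siFUBP1 library was below the lowest siMock library, with a log2 fold change of -0.80 (95% confidence interval -1.02 to -0.59, adjusted p = 1.25e-06, edgeR). ASPM, a spindle pole protein (chromosome 1, 197084128 to 197146694), was at 177, 207 and 227 CPM in siMock and at 113, 108 and 139 CPM in siFUBP1. The libraries of each group were spread, but the groups did not meet (log2 fold change -0.77, adjusted p = 7.46e-07, edgeR). HMMR, a microtubule-associated receptor for hyaluronan, was at -0.58 (adjusted p = 1.03e-05, edgeR) and the spindle protein DLGAP5 at -0.32 (adjusted p = 0.00359, edgeR), or -0.51 with the GC and length correction. NUSAP1, which bundles spindle microtubules, was at -0.66 (adjusted p = 0.000158, edgeR) and the midzone crosslinker PRC1 at -0.51 (adjusted p = 0.0170, edgeR). The last 2 are uncertain in level. NUSAP1 shares 62.2% of its exonic bases with AC087721.2 on the same strand, which had 0 counts. PRC1 shares 57.6% with AC068831.7, also on the same strand, which was at 21.5 ± 3.22 and 19.2 ± 2.31 CPM (SD, n = 3). That gene lay above PRC1 itself, at 6.92 ± 0.950 and 4.86 ± 0.913 CPM (SD, n = 3), and did not pass (log2 fold change -0.17, adjusted p = 0.236, edgeR). PRC1 lost its call without siFUBP1 replicate 1 (adjusted p = 0.0596, edgeR), siFUBP1 replicate 3 (0.0903) or siMock replicate 2 (0.112). Library size alone and limma at both pseudocounts lost it too. NEK2, a centrosomal kinase that releases the tie between centrosomes, was the exception (chromosome 1, 211658657 to 211675630). It was at 34.8, 32.9 and 36.1 CPM in siMock and at 46.8, 57.1 and 54.4 CPM in siFUBP1, so that all siFUBP1 libraries were higher (log2 fold change 0.61, adjusted p = 3.05e-06, edgeR). NEK2 was at 0.39 after the GC and length correction (adjusted p = 0.000187, edgeR). ECT2, the exchange factor that activates RhoA at the cleavage plane, was at 96.0 ± 6.36 and 98.9 ± 8.26 CPM (SD, n = 3; adjusted p = 0.679, edgeR).

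Both chromosome proteins widely used as markers of proliferation fell. MKI67, which encodes the chromosome surface protein Ki-67 (chromosome 10, 128096659 to 128126385), was at 353, 467 and 480.3 CPM in siMock and at 282, 239 and 279 CPM in siFUBP1. The siMock replicate 1 was well below the other siMock libraries but above every siFUBP1 library, and the log2 fold change was -0.70 (95% confidence interval -0.91 to -0.49, adjusted p = 3.94e-06, edgeR). TOP2A, the topoisomerase that untangles sister chromatids (chromosome 17, 40388516 to 40417950), was at 403, 423 and 473 CPM in siMock and at 325, 302 and 356 CPM in siFUBP1. It fell less (log2 fold change -0.40, adjusted p = 0.000173, edgeR), again with no overlap. Lamin B1 (LMNB1), of the nuclear lamina that breaks down in mitosis, was at 118 ± 2.42 and 113 ± 5.40 CPM (SD, n = 3) and did not pass (adjusted p = 0.430, edgeR).

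Across the 17 alternative ways of processing, which reuse the same libraries, 21 of the 32 called members kept their call and their direction. The share kept among all called genes was not computed. These were CDC25B, AURKB, BIRC5, MAD2L1, CENPA, KIF23, KIF18A and NEK2, which rose, and CCNB1, CCNB2, AURKA, ESPL1, KIF20A, KIF2C, NUSAP1, DLGAP5, HMMR, ASPM, ANLN, MKI67 and TOP2A, which fell. The remaining 11 lost the call under at least 1 alternative and 0 changed direction.

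Levels per length, as the deposited FPKM, spanned a wide range in both groups. TPX2 was the highest, at 72.0 ± 1.41 in siMock and 71.1 ± 1.90 in siFUBP1 (SD, n = 3). In siMock it was followed by TOP2A (66.5 ± 5.42), MYBL2 (60.0 ± 4.42), UBE2C (59.3 ± 0.551) and CCNB1 (58.2 ± 0.889), of which the last 3 differed by less than the spread of MYBL2. PRC1 was the lowest, at 1.24 ± 0.173 and 0.874 ± 0.167. Its place and that of NUSAP1 are uncertain, since 57.6% and 62.2% of their exonic bases are shared with another gene on the same strand. In the order of the 48 by FPKM, AURKB moved from place 33 in siMock to place 14 in siFUBP1, BIRC5 from 22 to 12 and NEK2 from 37 to 26. CCNB1 moved from place 5 to 10, ASPM from 20 to 37 and ESPL1 from 32 to 42.

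Further mitotic genes, in 6 lists of 126 genes that were all tested, gave 49 higher (38.9%) and 40 lower (31.7%), with a median log2 fold change of 0.07. With the GC and length correction the counts were 42 and 47. All tested genes gave 30.1% higher and 30.1% lower, and those counted at least as deeply as PRC1 33.6% and 34.6%. The difference in shares was not tested. Of 37 other kinetochore and checkpoint genes, 17 were higher and 12 lower, with a median of 0.17, but 15 and 16 with the GC and length correction, with a median of -0.03. They were led by CENPH of the inner kinetochore (log2 fold change 1.65), the MAD2L1 partner MAD1L1 (1.29) and ZW10 of the outer kinetochore (1.07). Of 29 other spindle, motor and cytokinesis genes, 9 were higher and 11 lower, with the importin KPNA2 (log2 fold change -1.19) and the spindle protein SPAG5 (-1.16) furthest down and PSRC1 (0.97) furthest up among those named. SPAG5 shares 8.86% of its exonic bases with AC005726.1 on the same strand. Condensin and cohesin genes gave 8 higher and 4 lower of 17. The lower count was 2 without siFUBP1 replicate 1, without siFUBP1 replicate 2 or without siMock replicate 3, and also with library size alone, upper-quartile factors, limma or no filter on low counts. Among them were the cohesin subunit STAG2 (log2 fold change 0.72), its regulator PDS5B (-0.59) and sororin (CDCA5, 0.56). APC/C subunits and regulators gave 6 higher and 4 lower of 17, which turned to 2 higher and 5 lower with the GC and length correction, and 2 were lower with library size alone. Of those named, ANAPC16 was at -1.496, ANAPC13, 13% of whose exonic bases overlap CEP63 on the opposite strand, at 0.91 and ANAPC2 at -0.67 on the log2 scale.

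The genes that control CDK1 at G2/M gave 5 higher and 5 lower of 14 (35.7% each), against 30.1% and 30.1% of all tested genes. Among the further mitotic lists the largest changes were those of GADD45A and CDKN1A, both placed in this list. GADD45A, a stress-induced inhibitor of CDK1, was at 15.5, 14.3 and 11.5 CPM in siMock and at 106, 142 and 79.6 CPM in siFUBP1. It rose by 2.99 on the log2 scale. CDKN1A, the CDK inhibitor p21, was at 246, 230.3 and 225 CPM in siMock and at 40.4, 40.8 and 33.6 CPM in siFUBP1, and fell by 2.61. ENSA, an inhibitor of the phosphatase that opposes CDK1, was at 1.11. Genes of the DREAM and MuvB complexes, which repress and activate the members' promoters over the cycle, gave 4 higher and 4 lower of 12. These shares, 33.3% each, were also close to those of all tested genes. LIN52 was at -1.12, LIN54 at 0.87 and RBL1 at 0.52 on the log2 scale. Set beside these, 20 genes of S phase were mostly lower: 16 fell and 0 rose by edgeR. On the same libraries, 0 rose at edgeR's unadjusted p, with DESeq2 and with limma. Their median log2 fold change was -0.73, with the G1/S cyclins CCNE1 (-1.70) and CCNE2 (-1.62, with 37% of its exonic bases opposite INTS8) and the licensing factor CDC6 (-1.02) furthest down. The difference between these S phase genes and the members was not tested, and the list was written with earlier results of these data known.

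**Figure D5:**
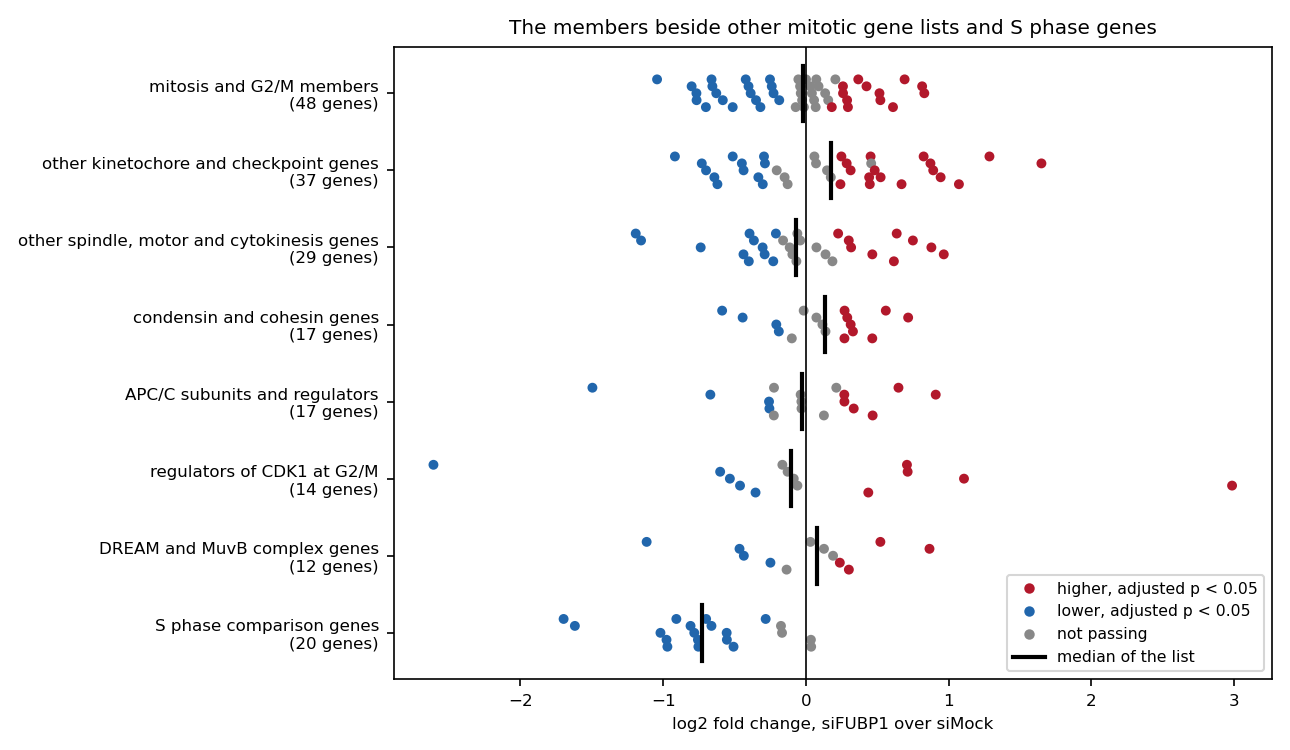
Log2 fold change of siFUBP1 over siMock (horizontal axis) for each gene of the members and of 7 further lists, coloured by the edgeR result, with the median of each list as a black bar. The mitotic lists have medians between -0.11 and 0.17 with points on both sides of 0, whereas the S phase genes have a median of -0.73. All lists were written with earlier results of these data known.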

How the data were processed

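Poly(A)-selected RNA of 6 MG63 libraries (3 siMock, 3 siFUBP1) was analysed, grouped by the deposited titles. The authors deposited raw read counts per gene, which per the labels were processed with HISAT2 2.0.5, StringTie 1.3.3b, featureCounts 1.5.0-p3 and DESeq2 1.16.1; their roles are not given, nor is the use of strand. FPKM values were deposited by the authors beside the counts. The authors' deposited log2 fold changes, p-values and group means of their own comparison were not used. All 58735 genes match GENCODE 29 (GRCh38). The groups were tested on the counts in R 4.3.3 using edgeR 4.0.16 (TMM, edgeR's expression filter, robust quasi-likelihood F test, Benjamini-Hochberg adjustment over 16116 genes), tested on simulated data. Total counts were 16309900 to 17484313 per library, and replicates differed by more than sampling noise (chi-square per gene of 5.79 or more). Alternatives were other scalings and filters, DESeq2 1.42.0, limma 3.58.1 on log2(FPKM + 1) and log2(FPKM + 0.1), correction for GC content and transcript length (loess, span 0.3, fitted where the mean count reached 50), a replicate block and leaving out each library. Members were chosen, and gene lists, markers and motifs written, with earlier results of these data known. Values in every library are given for FUBP1, CDK1, CCNB1, MKI67, TOP2A, FOXM1, MYBL2, members past the fold threshold and the 5 largest rises and falls; of each further list the 3 called genes with the largest changes and a mean count of 20 or more are named. GADD45A and CDKN1A, which are among these, were given by library after their values were seen.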

Additional observations from a re-analysis of the deposited data

How the results depend on the processing

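The counts of members called were 13 higher and 19 lower. They were within 1.5 times of this under every alternative tried, from 10 higher (without siFUBP1 replicate 1) to 15 (library size alone), and from 13 lower (library size alone) to 21 (GC and length correction). With 1 library left out they ranged from 10 to 13 higher and from 14 to 17 lower, the median of the members from -0.04 to 0.02, the calls in the 6 further lists from 78 to 86 and those over all genes from 8905 to 9421. The count of members below the fold threshold, 1 (ESPL1), was 0 with the GC and length correction, with library size alone, with limma on log2(FPKM + 1) and with the replicate block with GC and length correction, and ranged from 0 to 1 with 1 library left out. No member passed it upwards, 0 in each. The median log2 fold change of the members, -0.02, was -0.077 with the GC and length correction, -0.079 with the block added to it, and 0.077 with library size alone.

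Direction changed only in members that had not passed. With the GC and length correction CDK1 was at -0.27, CCNA2 at -0.12, MYBL2 at 0.13, CDCA8 at -0.029, BUB1B at -0.055, PTTG1 at -0.062 and ECT2 at -0.090, and with the block added to that correction they were at -0.27, -0.12, 0.13, -0.029, -0.055, -0.063 and -0.091. With library size alone MYBL2 was at 0.061, TPX2 at 0.070, NDC80 at 0.083, KIF11 at 0.044, KIF4A at 0.056 and LMNB1 at 0.026. With upper-quartile factors MYBL2 was at 0.0070, TPX2 at 0.016, NDC80 at 0.029 and KIF4A at 0.0022, and with no filter on low counts NDC80 was at 0.0013. With 1 library left out CDK1 ranged from -0.031 to 0.038, CCNA2 from -0.024 to 0.15, MYBL2 from -0.095 to 0.0068, TPX2 from -0.047 to 0.0036, BUB1B from -0.014 to 0.13, NDC80 from -0.052 to 0.047, KIF4A from -0.12 to 0.035 and ECT2 from -0.028 to 0.087. The cause of these changes was not tested.

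Whether the replicate numbers pair the libraries is not stated. Deviations from the group means correlated between libraries of the same number at 0.002, 0.02 and 0.11, and between those of different number at -0.07 to 0.06. Not every library correlated best with its own number, but 3 libraries a group are too few to decide on pairing. With the replicate number as a block, 13 members were higher and 19 lower, and all 48 kept their call, while the calls over all genes went from 9695 to 10014. Members with few counts (PRC1, 70 to 136 per library) and those that share exons with other genes are the least certain in level. Intervals rest on 3 libraries a group.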
